A study of Homo sapiens with 8 samples.

Results

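The 2 arrays of Reh cells transfected with IRF5-4D together with IKKβ(EE), called the combination here, were compared with the 2 arrays of mock-transfected Reh cells, across all 19775 genes with a probe set of their own. These 4 arrays were chosen by their transfection labels, out of 8 in the series. Reh is an established line of acute lymphoblastic leukaemia, of precursor B cell type, and all groups were made in it. The mock cells received control constructs, 2 further arrays held cells with IRF5-4D alone, and 2 held cells with IKKβ(EE) alone. Both constructs are called constitutively active variants by the submitters, and the arrays of a group biological duplicates. They were numbered 1 and 3, and paired values below are given in that order. Total RNA was hybridized to Affymetrix U133 Plus 2.0 arrays, and the values are log2 RMA values per probe set. Their number limits the precision, and p-values measure only the spread between these samples. The time between transfection and harvest, the share of cells that took up the constructs and the promoter that drove them are not stated in the sources used here. In a bulk sample, more responding cells and more RNA in each responding cell cannot be told apart.

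IRF5 belongs to the interferon regulatory factors, and is switched on by phosphorylation downstream of Toll-like receptors and drives genes of inflammatory cytokines. IKKβ phosphorylates the inhibitors that hold NF-κB in the cytoplasm, so that they are degraded and NF-κB dimers enter the nucleus. Promoters of chemokine and cytokine genes often carry binding sites for both families, and in B cells NF-κB also supports survival, antigen presentation and maturation.

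The cells carried the markers of their label. Of 15 measured markers of precursor B cells, 14 lay above the array median in the mock cells, and 0 were called in either direction. Over all genes tested 2.66% were called higher and 0.501% lower, so 0 calls among 15 genes says little. DNTT, the polymerase that adds bases at the joints of rearranging antigen receptor genes, stood at 13.97 and 14.11 in mock and at 14.14 and 14.24 in the combination. VPREB1, a part of the surrogate light chain, was near background. Across genes, arrays of the same group correlated at 0.994 to 0.997. A gap of over 1 between the arrays of a group was seen for 153 genes in mock and for 162 genes in the combination, against 39 for IRF5-4D and 53 for IKKβ(EE).

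The transfected genes were checked before the response. One of 3 IKBKB probe sets responded and measured 4.80 and 4.06 in mock, 12.57 and 10.98 with IKKβ(EE) alone, and 11.11 and 9.33 in the combination. It rose by 5.79 (SE 0.59, adjusted p = 0.000932) in the combination, and the other two IKBKB probe sets differed by 0.16 and 0.04 and were not called. One of 3 IRF5 probe sets was called in the combination. It measured 6.93 and 7.06 in mock, 7.15 and 7.25 with IRF5-4D alone, and 8.002 and 7.82 in the combination. It rose by 0.92 (SE 0.13) with an adjusted p of 0.00586, and the remaining IRF5 probe sets differed by 0.49 and 0.28 and were not called. Whether these probes can detect the introduced transcripts is not stated in the sources used here.

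A gene was called when its adjusted p was under 0.05 in limma, with Benjamini-Hochberg adjustment over all genes. Against mock, 526 genes were called higher, 2.66% of all genes tested, and 99 were called lower, 0.501% of them. At 0.501%, a short list of genes would mostly hold 0 called falls, so 0 falls in a list says little about its members. The rises were also the larger changes. At least 4-fold changes were found for 109 of the called rises and for 4 of the called falls, and 27 rises reached 16-fold. The called rises had a median level of 7.11 in mock and 8.62 in the combination, and the called falls went from 8.91 to 7.996. Over all genes the median difference was -0.03. Of the called rises, 50 started at or under 4.23 in mock, the highest lower quartile of an array, where a level is not shown to lie above background and the size of a rise is uncertain. They include IL1RN, RIN2, HSFX3, NAPSB, LINC01857, CDH1, HSD11B1, CCND2, PLAT, GPR84 and TMCC3, which are not all marked so below. The plot of both group means shows the rises spread over the whole range of mock levels.

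**Figure D1:**
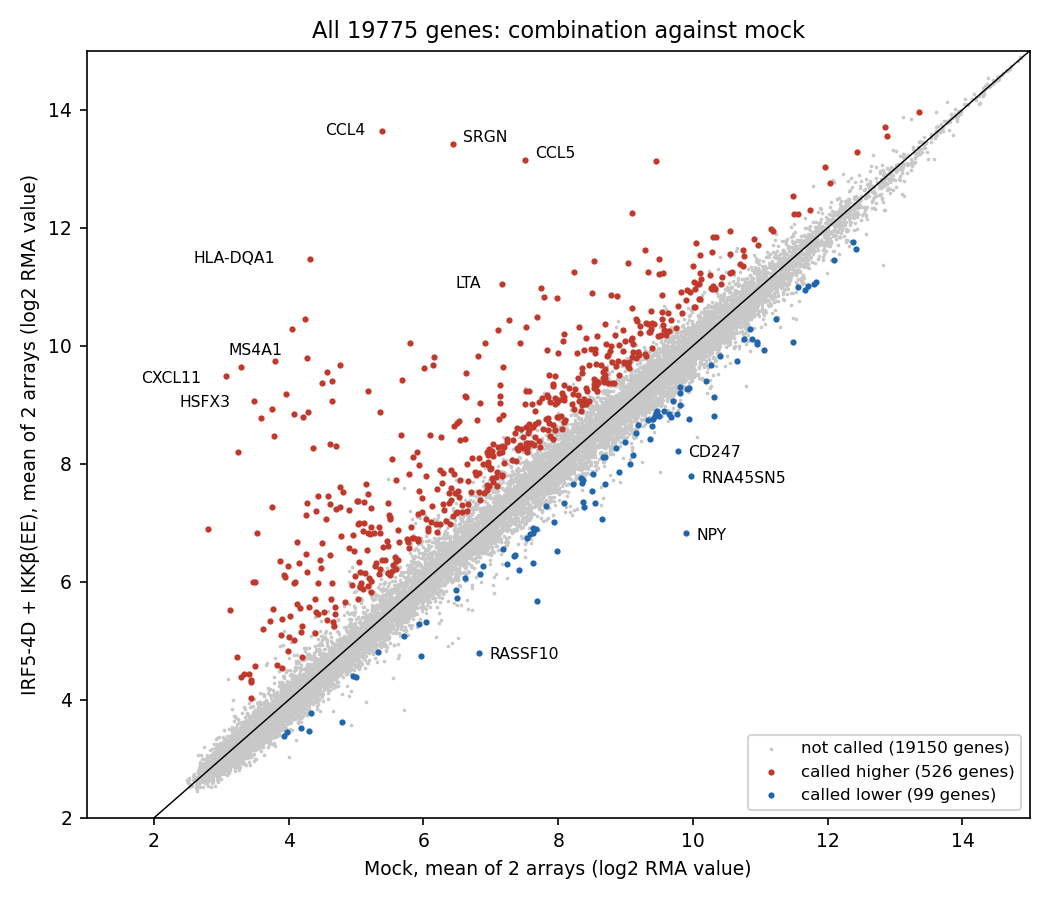
Mean log2 RMA value of each of 19775 genes in the 2 mock arrays (x axis) and the 2 combination arrays (y axis), with the line of equal values. Red points are the 526 genes called higher and blue points the 99 called lower. CCL4, HLA-DQA1 and SRGN stand farthest above the line, and NPY, RNA45SN5 and RASSF10 farthest below it.

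The sequences before the start sites of 6 of the most raised genes are shown because they hold a match to a motif of one of the factor families. The search covered 250 bases before each RefSeq start on GRCh38.p14, on both strands. It used the NF-κB consensus and the core of the interferon-stimulated response element (ISRE), a spaced repeat of GAAA. Capitals mark the match, and each sequence runs 5′ to 3′ toward the gene. CXCL11 (chr4:76036071-76036320, minus strand), IL12A (chr3:159988585-159988834, plus strand, with the consensus in reverse complement) and LTA (chr6:31572039-31572288, plus strand) had an NF-κB match. IL1RN (chr2:113127239-113127488, plus strand), BCL2A1 (chr15:79971197-79971446, minus strand, with the core in reverse complement) and FRMD3 (chr9:83467743-83467992, minus strand) had an ISRE core.
CXCL11: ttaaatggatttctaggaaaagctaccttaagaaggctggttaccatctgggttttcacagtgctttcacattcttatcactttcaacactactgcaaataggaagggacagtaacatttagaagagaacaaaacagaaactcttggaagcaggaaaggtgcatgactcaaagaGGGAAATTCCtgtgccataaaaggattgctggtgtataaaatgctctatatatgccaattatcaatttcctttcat
IL12A: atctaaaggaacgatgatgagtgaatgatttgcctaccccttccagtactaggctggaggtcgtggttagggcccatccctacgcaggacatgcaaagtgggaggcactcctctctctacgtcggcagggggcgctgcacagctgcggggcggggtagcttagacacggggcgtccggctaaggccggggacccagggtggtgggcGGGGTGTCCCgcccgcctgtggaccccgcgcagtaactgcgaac
LTA: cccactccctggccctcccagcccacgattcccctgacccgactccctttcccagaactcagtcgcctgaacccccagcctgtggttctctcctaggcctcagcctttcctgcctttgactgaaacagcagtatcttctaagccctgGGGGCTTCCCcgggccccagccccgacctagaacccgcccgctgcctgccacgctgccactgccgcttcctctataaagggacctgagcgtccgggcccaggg
IL1RN: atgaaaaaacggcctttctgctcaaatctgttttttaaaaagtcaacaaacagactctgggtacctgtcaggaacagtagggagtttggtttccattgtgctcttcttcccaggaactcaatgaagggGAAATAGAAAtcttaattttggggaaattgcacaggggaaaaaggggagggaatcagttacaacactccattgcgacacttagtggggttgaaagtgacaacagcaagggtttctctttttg
BCL2A1: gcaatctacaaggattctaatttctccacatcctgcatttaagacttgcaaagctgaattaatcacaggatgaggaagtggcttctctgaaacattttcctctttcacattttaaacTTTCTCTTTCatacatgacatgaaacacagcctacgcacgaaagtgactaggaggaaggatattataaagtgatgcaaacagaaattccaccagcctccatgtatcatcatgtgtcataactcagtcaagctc
FRMD3: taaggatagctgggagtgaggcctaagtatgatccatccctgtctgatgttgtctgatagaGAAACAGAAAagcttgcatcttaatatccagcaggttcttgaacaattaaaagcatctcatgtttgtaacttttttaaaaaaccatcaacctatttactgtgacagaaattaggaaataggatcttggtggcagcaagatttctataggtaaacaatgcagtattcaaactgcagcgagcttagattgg

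The match began 76 bases before the start of CXCL11, 44 before that of IL12A and 103 before that of LTA. For the ISRE core the distance was 122 bases in IL1RN, 133 in BCL2A1 and 189 in FRMD3. Of the 40 largest rises, 24 had a promoter in the RefSeq table and 10 of these had a match. That count is per gene and takes either motif. The shares that follow are per promoter and per motif, and a gene can have several promoters, so they do not compare with it. An NF-κB match was found in 11% of 671 promoters of called rises, in 4.42% of 113 promoters of called falls, and in 5.88% of 21485 promoters of all genes tested. The ISRE core was found in 7.0%, 1.77% and 2.55% of them. CXCL10 held 2 NF-κB matches and 1 ISRE core, and 4 promoters of called rises (0.596%) held both motifs, against 0.126% over all. A match describes letters only, and binding was not measured.

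Chemokines, the secreted proteins that guide leukocytes, held the largest rise of all genes. Of 29 measured chemokine genes, 9 rose (31% beside 2.66% of all genes) and 0 fell, and the median difference was 0.04. CCL4, which attracts monocytes and T cells, went from 6.28 and 4.49 in mock to 13.84 and 13.44, a rise of 8.26 (SE 0.57), or 306-fold. CCL5, a chemokine of T cells and monocytes, was already present in mock at 7.71 and 7.31 and reached 13.62 and 12.68, 49.9-fold higher (adjusted p = 3.51e-05). Both combination arrays lay far above both mock arrays for these genes.

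The ligands of CXCR3, which draw activated T cells and NK cells, all rose. CXCL11, whose NF-κB match is shown above, measured 3.08 and 3.06 in mock, near background, and 9.62 and 9.34 in the combination. CXCL10 rose from 4.76 and 4.47 to 8.93 and 7.74. CXCL9 rose from 4.04 and 4.78 to 7.30 and 7.10, a difference of 2.80 (SE 0.23). CCL2, which attracts monocytes, rose from 4.48 and 4.52 to 9.54 and 9.21, and its SE of 0.16 was the smallest among these 6 chemokines. CCL19, CCL1 and CCL8 made up the remaining called members. CCL1, a ligand of CCR8, measured 4.97 and 4.98 in mock and 7.004 and 6.04 in the combination; without mock array 1 its rise was 1.54 and was not called.

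Among 17 chemokine receptors, 3 rose (17.6% beside 2.66% of all genes) and 0 fell. CCR7, which directs lymphocytes to lymph nodes, rose from 4.62 and 3.93 to 10.34 and 9.25, 45.9-fold. ACKR3, a receptor that takes up CXCL11 and CXCL12, rose by 1.38 (SE 0.19) on the probe set used, while another of its 3 probe sets differed by -0.29 and their mean differed by 0.39 and was not called. CCR6 measured 4.03 and 3.94 in mock and 7.03 and 5.51 in the combination. Its rise of 2.28 had an adjusted p of 0.0332, and it was 1.53 and not called without combination array 1. The CCR6 call was also lost without either mock array (2.33 and 2.24) and without either IKKβ(EE) array.

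Interleukins and colony-stimulating factors gave 6 rises among 35 measured genes (17.1% beside 2.66% of all genes) and 0 falls. IL1RN, the antagonist that blocks the interleukin-1 receptor, measured 4.07 and 4.02 in mock and 10.55 and 10.01 in the combination. Its rise of 6.24 (SE 0.22, adjusted p = 3.86e-06) had one of the smallest adjusted p values of the comparison, although another of its 5 probe sets differed by -0.03. EBI3, the shared subunit of interleukin-27 and interleukin-35, rose from 3.86 and 4.62 to 10.99 and 9.92. IL12A, the p35 subunit of interleukin-12 and also of interleukin-35, rose from 5.78 and 5.82 to 10.68 and 9.42. The rise was 74.5-fold for EBI3 and 19.0-fold for IL12A in the same samples.

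LIF, a cytokine of the interleukin-6 family, rose by 2.14 (SE 0.28) from 5.61 and 5.57 to 8.25 and 7.19. IL15, which sustains NK cells and memory T cells, rose by 1.29 (SE 0.13), and its receptor chain IL15RA by 1.21 (SE 0.16). IL1B, the proinflammatory cytokine, was high in mock at 9.50 and 9.17 and measured 10.60 and 10.13 in the combination, a rise of 1.03. That call was lost without mock array 3 (0.87) and without combination array 1 (0.80). Of 32 cytokine receptors 8 rose (25% beside 2.66% of all genes) and 0 fell. IL10RA, the signalling chain of the interleukin-10 receptor, rose from 4.13 and 4.10 to 6.99 and 6.36. IL4R rose by 1.47 (SE 0.13), IL2RG, the chain shared by several interleukin receptors, by 1.03, and IFNGR2, a chain of the interferon-γ receptor, by 0.94.

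The TNF superfamily gave 10 rises among 29 measured ligands and receptors (34.5% beside 2.66% of all genes) and 0 falls. The median difference was 0.49. LTA, lymphotoxin alpha, whose NF-κB match is shown above, rose from 7.21 and 7.12 to 11.40 and 10.70, 14.8-fold (adjusted p = 1.78e-05). LTB, its membrane partner, rose by 1.39 (SE 0.21), while another of its 2 probe sets differed by 0.15. TNF, the neighbouring gene of the family, measured 9.68 and 9.41 in mock and 11.01 and 9.86 in the combination; the difference of 0.89 was not called (adjusted p = 0.204).

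Costimulatory ligands and receptors of the family rose as well. CD40, the B cell receptor for T cell help, rose from 7.94 and 7.63 to 11.16 and 10.48, 8.20-fold. TNFSF9, the ligand of 4-1BB, rose from 6.64 and 5.66 to 10.37 and 9.26, and TNFSF4, the ligand of OX40, from 8.65 and 8.42 to 11.85 and 11.02. TNFRSF9, which is 4-1BB itself, rose by 2.71 (SE 0.29) and CD70, the ligand of CD27, by 1.92 (SE 0.16). FAS, the death receptor, rose from 6.96 and 6.27 to 9.66 and 8.62, a rise of 2.53 (SE 0.35, adjusted p = 0.00508).

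Genes of adhesion, costimulation and maturation gave 10 rises among 26 measured genes (38.5% beside 2.66% of all genes) and 0 falls. SLAMF1, a self-binding receptor of lymphocytes, rose from 5.25 and 4.28 to 10.48 and 8.88, so the combination arrays were far apart but both above mock. LAMP3, found in lysosomes of maturing dendritic cells, rose from 4.07 and 4.50 to 9.54 and 8.20. CD83, a marker of maturing antigen-presenting cells, rose from 8.86 and 8.73 to 11.17 and 10.56. ICAM1, the ligand of LFA-1, rose by 2.47 (SE 0.34), and CD48, a ligand of CD244, by 2.34 (SE 0.20). CD69, an early activation marker, rose by 1.31, CD274, the ligand PD-L1, by 1.27, and SLAMF7 by 0.94.

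Of 16 measured genes of MHC class II and its regulators, 13 rose and 0 fell, 81.2% of the list beside 2.66% of all genes. Most of these genes were already high in the mock cells and rose by less than 2 on the log2 scale. HLA-DRA went from 12.90 and 12.80 to 13.80 and 13.62, a rise of 0.86 (SE 0.12, adjusted p = 0.00512). HLA-DRB1 rose by 0.85 (SE 0.12), but was measured only on a probe set that may bind several transcripts. HLA-DOA, a part of the peptide-editing modulator, rose by 1.13 (SE 0.11), HLA-DMB, a part of the editor itself, by 0.95, and CTSS, which trims the invariant chain, by 0.88. CD74, the invariant chain, rose by 0.66, a call lost without either mock array (0.73 and 0.59) and without either combination array (0.62 and 0.69).

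HLA-DQA1 was the second largest rise of all genes, from 4.90 and 3.73 to 11.95 and 10.99 (7.16, SE 0.41), but another of its 3 probe sets differed by -0.10 and the mean of its probe sets by 2.34. The HLA genes have near-identical and variable sequences, so probe sets can differ in what they bind. HLA-DQB1, the partner chain, rose by 1.70 (SE 0.14) on a probe set that may bind several transcripts, and by 0.32, not called, without such probe sets. CIITA, the master regulator of the class II genes, measured 8.67 and 8.30 in mock and 8.16 and 7.52 in the combination, and the difference of -0.65 was not called (adjusted p = 0.315). RFX5, a factor that binds class II promoters, rose by 0.76; without mock array 1 the value was 0.75 and without combination array 1 it was 0.77, neither called.

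Among 19 genes of MHC class I and peptide loading, 5 rose (26.3% beside 2.66% of all genes) and 0 fell. The median difference was 0.39. TAP1, one chain of the peptide transporter, rose from 9.44 and 9.56 to 11.57 and 11.36 (1.96, SE 0.13, adjusted p = 8.07e-05). TAPBP, tapasin, rose by 1.01 (SE 0.12). TAP2 and PSMB9 rose by 0.69 and 0.56. In the fits without 1 of the 8 arrays, TAP2 kept its call in 1 fit and PSMB9 in 0, at values of 0.50 to 0.89 and 0.46 to 0.66. As the mean of its probe sets TAP2 differed by 0.45 and was not called. HLA-F rose by 1.07, and by 1.04 without combination array 1, where it was not called.

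Of 36 measured B cell identity genes, 5 rose (13.9% beside 2.66% of all genes) and 1 fell (2.78% beside 0.501%). MS4A1, which encodes CD20, a surface protein of mature B cells, rose from 3.13 and 3.44, near background, to 10.23 and 9.04, 81.6-fold. FCRLA, an intracellular Fc receptor-like protein of B cells, rose by 2.86 (SE 0.19), LYN, a kinase of B cell receptor signalling, by 2.01 (SE 0.18), CD72 by 1.19 and the transcription factor SPIB by 0.85. BCL6, a repressor of germinal centre cells, was the list's fall, from 11.88 and 11.73 to 11.16 and 10.95 (-0.75, SE 0.15). The BCL6 call was lost without either mock array (-0.67 and -0.83) and without either combination array (-0.86 and -0.65). No gene was called among 24 genes of precursor B cells and recombination, beside 2.66% of all genes called higher and 0.501% lower. The largest difference in that list was 0.84.

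The 40 largest rises also held DAPP1, PLEK and IGLC1. DAPP1, an adaptor downstream of the B cell receptor, rose from 4.32 and 4.83 to 10.06 and 9.04, though another of its 4 probe sets differed by 0.36. PLEK, the kinase C substrate pleckstrin, rose from 6.62 and 5.65 to 10.17 and 9.17. IGLC1, an immunoglobulin lambda constant gene, went from 9.74 and 9.17 to 13.15 and 13.10, with another of its 9 probe sets at -0.09. Lambda genes are near-identical copies, so this rise is not assigned to IGLC1 with certainty.

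The machinery of NF-κB itself gave 7 rises among 21 measured subunits and inhibitors (33.3% beside 2.66% of all genes) and 0 falls. The median difference was 0.72. TRAF1, an adaptor of TNF receptors, rose from 6.08 and 5.28 to 9.73 and 9.11, 13.4-fold. NFKBIZ, a nuclear IκB protein, rose by 2.80 (SE 0.28), TNIP2, an inhibitor that partners A20, by 1.72 (SE 0.18), and NFKB1, which encodes p105 and p50, by 1.24 (SE 0.13). NFKB2 rose by 1.76 (adjusted p = 0.0431), but kept its call in only 1 of the 8 fits without an array. It was 1.10 without mock array 3, 1.55 without combination array 1 and 0.69 as the mean of its 3 probe sets, none of these called.

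Classical inhibitors of the pathway were high in mock and their differences were not called. NFKBIA, which encodes IκBα, measured 12.12 and 11.45 in mock and 12.96 and 12.45 in the combination, a difference of 0.92 with an SE of 0.28 (adjusted p = 0.134). TNFAIP3, which encodes A20, measured 12.29 and 11.88 against 12.89 and 12.73, a difference of 0.72 (adjusted p = 0.117). RELB, a subunit of the noncanonical branch, differed by 0.89 and was not called, with mock arrays at 7.20 and 5.88 and combination arrays at 7.35 and 7.51.

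Of 7 interferon regulatory factors 2 rose (28.6% beside 2.66% of all genes) and 0 fell. IRF4, a factor of activated B cells and plasma cells, rose from 6.02 and 5.32 to 9.03 and 7.94 (2.81, SE 0.33), although another of its 3 probe sets differed by -0.17. IRF9, which joins STAT proteins to bind the ISRE, rose from 6.97 and 6.61 to 8.50 and 8.98 (1.94, SE 0.18). IRF7 and IRF1 differed by 0.46 and 0.33 and were not called. Among 24 JAK-STAT and SOCS genes 5 rose (20.8% beside 2.66% of all genes) and 0 fell. SOCS1, a feedback inhibitor, rose from 4.996 and 4.80 to 7.70 and 6.74 on its probe set, while its other probe sets differed by 0.03 to 0.48 and were not called. JAK1 rose by 1.06 on its probe set, and by 0.53, not called, as the mean of 5 probe sets. JAK3 rose by 1.12, and by 0.27, not called, as the mean of 4 probe sets; it also lost its call without combination array 1 (1.20) or array 3 (1.04). STAT3 and TYK2 rose by 0.58 and 0.53, and each kept its call in 0 of the 8 fits without an array.

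Interferon-stimulated genes gave 16 rises among 44 measured genes (36.4% beside 2.66% of all genes) and 0 falls. Of all 44, 42 differed by more than 0, with a median of 0.51, where over all genes 8778 of 19775 lay above 0. IFI44L rose from 3.76 and 4.14 to 6.53 and 5.62, and EPSTI1 from 4.26 and 3.92 to 6.26 and 5.75. The other EPSTI1 probe set differed by 0.13. IFIT5 rose by 1.65 (SE 0.14, adjusted p = 0.000225), IFIT1 by 1.53 (SE 0.18) and MX1, an antiviral GTPase, by 1.15 (SE 0.12). GBP2 and GBP4, GTPases that interferon-γ induces, rose by 1.37 and 1.27.

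IFIH1, the RNA sensor MDA5, rose by 1.97 (SE 0.24) from 9.17 and 8.56 to 10.97 and 10.71, and by 1.17, not called, as the mean of 3 probe sets. ISG20, an RNA exonuclease, rose by 2.40 (SE 0.42); without mock array 3 the value was 1.83 and without combination array 1 it was 1.93, neither called. RSAD2, viperin, rose by 2.09 (SE 0.41), with 1.63 without mock array 3 and 1.89 without combination array 1, neither called, and it kept its call in 3 of the 8 fits without an array. Among 32 genes of pattern recognition and type I interferon induction 2 were called, both higher, or 6.25% beside 2.66% of all genes. IRAK2, a kinase of Toll-like receptor signalling, rose by 2.28 (SE 0.25) and TICAM1, the adaptor TRIF, by 1.02 (SE 0.14). The other IRAK2 probe sets differed by -0.11 and 0.17 and were not called. MYD88, another Toll-like receptor adaptor, differed by -0.42 and was not called (adjusted p = 0.0927).

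Survival genes and cyclins moved by a few large steps. Of 26 measured BCL2 family and death regulators 2 rose (7.69% beside 2.66% of all genes) and 0 fell. BCL2A1, a BCL2-like survival protein with the ISRE core shown above, rose from 3.54 and 3.63, near background, to 9.64 and 7.91, 36.6-fold. CFLAR, the inhibitor of caspase-8, rose from 7.70 and 7.80 to 11.44 and 10.53, and its 14 probe sets differed by as little as 0.14. CCND2, a D-type cyclin, rose from 3.80 and 3.78 to 9.05 and 7.90, with another of 4 probe sets at 0.19. CDKN1A, the inhibitor p21, rose by 0.95 (SE 0.19) and lost its call without mock array 3 (0.77), combination array 1 (0.96), combination array 3 (0.94) or either IRF5-4D array.

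The rest of the 40 cell cycle and replication genes leaned the other way. In total 3 rose (7.5% beside 2.66% of all genes) and 1 fell (2.5% beside 0.501%). Of the list 31 lay below 0, where over all genes 10997 of 19775 did. The median was -0.14 beside -0.03 over all genes. MCM5, a subunit of the replicative helicase, fell by 0.63 (SE 0.13), a call lost without either mock array (-0.57 and -0.69) and without either combination array (-0.67 and -0.59), as well as without either IRF5-4D array. BIRC5 and CDC6 each differed by -0.61 and were not called.

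Among 32 AP-1, EGR and immediate early factors 3 rose (9.38% beside 2.66% of all genes) and 0 fell. BATF3 rose by 1.14 (SE 0.12, adjusted p = 0.00115), from 7.23 and 7.23 to 8.39 and 8.35. MAFF was higher by 3.01 (SE 0.58), but its mock arrays stood at 9.02 and 7.44, and the call was lost without mock array 3 (2.22) and without combination array 1 (2.53), and was kept in 4 of the 8 fits without an array. FOS differed by 1.62 with an adjusted p of 0.077. Phosphatases and inhibitors of MAP kinase signalling gave 4 rises among 25 (16% beside 2.66% of all genes). DUSP4, a nuclear MAP kinase phosphatase, rose from 5.32 and 5.03 to 9.70 and 8.77, 16.7-fold. RGS1, a regulator of G protein signalling in lymphocytes, rose by 1.503 (SE 0.21) from high mock levels of 10.59 and 10.09.

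The third largest rise was SRGN, serglycin, the proteoglycan core of secretory granules. It measured 5.95 and 6.93 in mock and 13.63 and 13.22 in the combination, 127-fold higher (adjusted p = 1.21e-05), and the smallest difference among its 3 probe sets was 0.86. It was the only one of 24 granule and secretory genes called, or 4.17% beside 2.66% of all genes called higher. Plasminogen activators and their receptor rose together: PLAU, urokinase, went from 4.88 and 4.40 to 9.76 and 9.03, and PLAT, tissue plasminogen activator, from 2.84 and 2.77 to 7.47 and 6.32. PLAUR, the urokinase receptor, rose from 6.83 and 7.003 to 10.50 and 9.60. The list of 25 extracellular protease and matrix genes held 5 rises (20% beside 2.66% of all genes) and 1 fall (4% beside 0.501%).

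Other large rises were of genes known from other settings. RIN2, a regulator of Rab5, rose from 3.56 and 4.03 to 10.17 and 9.32, with another probe set at 0.46. HSFX3, an X-linked gene related to heat shock factors, rose from 3.49 and 3.49 to 9.55 and 8.57. CDH1, E-cadherin, rose from 3.19 and 3.31 to 9.02 and 7.39 on a probe set whose partner differed by -0.06. HSD11B1, which regenerates active glucocorticoid, rose from 3.88 and 4.29 to 9.32 and 8.35.

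DKK1, a secreted Wnt antagonist, rose from 6.28 and 5.73 to 9.63 and 9.62. GPR84, a receptor for medium-chain fatty acids, rose from 3.62 and 3.42 to 7.21 and 6.43. NAPSB, an aspartic peptidase pseudogene, rose 37.6-fold, and the noncoding transcript LINC01857 rose 35.9-fold, from 3.74 and 3.77 to 9.54 and 8.30. Both were near background in mock. The plot of the largest rises by array shows both combination arrays above both mock arrays in every one, which was a condition of their choice. Over all 19775 genes, both combination arrays lay above both mock arrays in 3833 and below them in 4966.

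**Figure D2:**
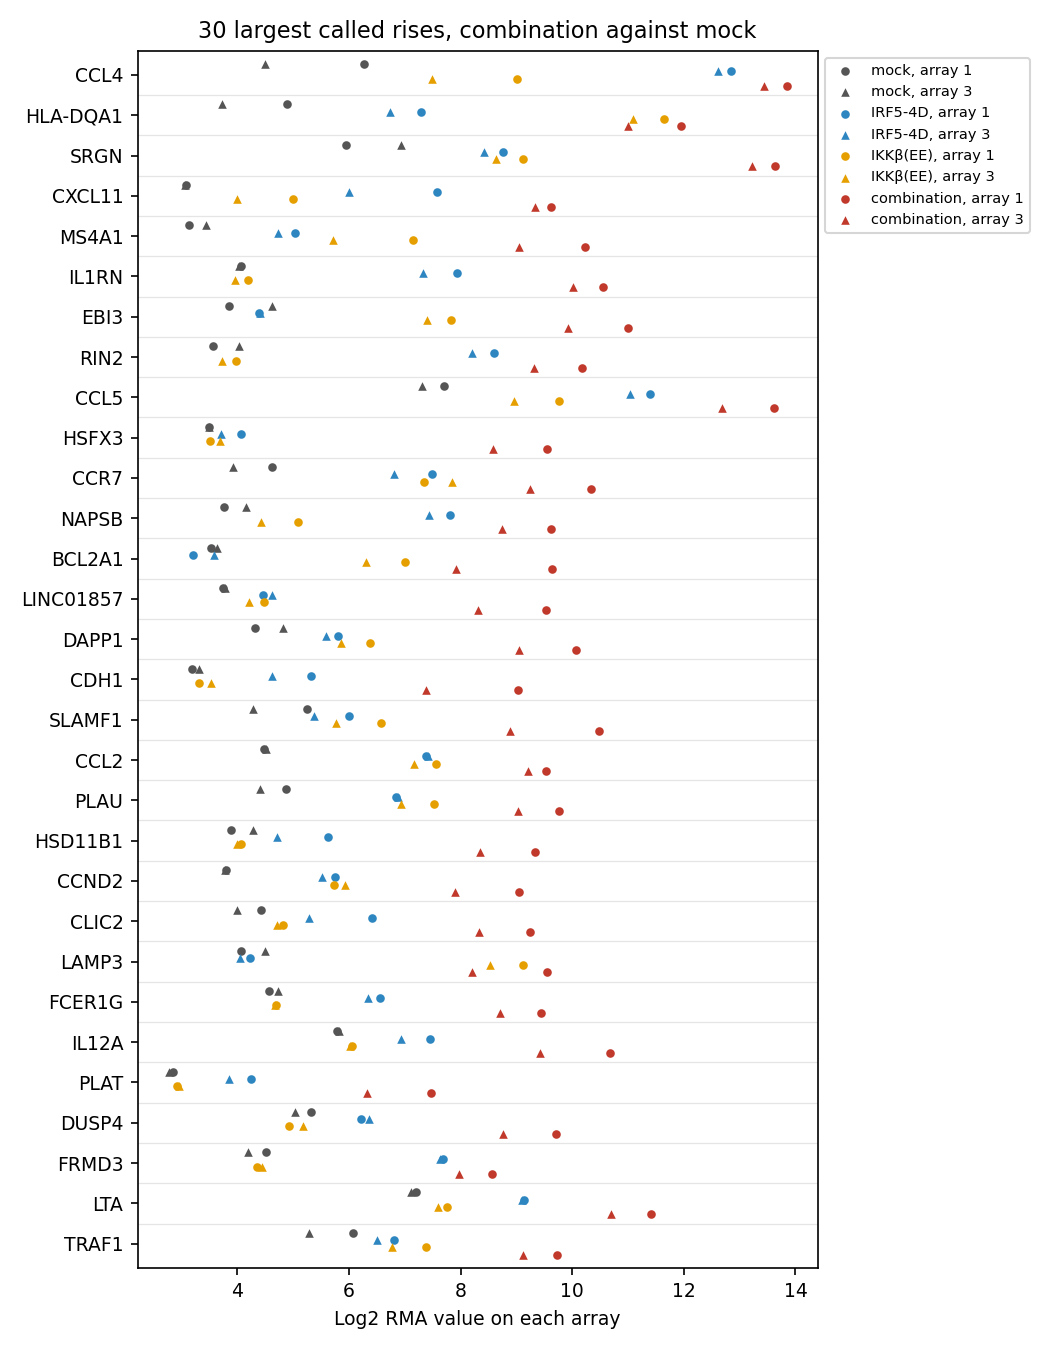
Log2 RMA value on each of the 8 arrays (x axis) for the 30 genes with the largest called rise in the combination against mock, in order of size. Circles are array 1 and triangles array 3 of each group. CCL4 runs from 4.49 on a mock array to 13.84 on a combination array, and for BCL2A1, CDH1 and SLAMF1 the combination arrays lie over 1 apart.

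GATA3, a T cell factor that Hodgkin lymphoma cells also express, rose from 7.35 and 7.51 to 10.58 and 9.51 (2.62, SE 0.32). A list of 43 genes known from Hodgkin lymphoma cells gave 14 rises (32.6% beside 2.66% of all genes) and 0 falls. Its median was 0.36. The list shares CCL5, CCR7, BCL2A1, CCND2, LTA, TRAF1, CFLAR, CD40, IRF4 and others with the lists above, so it adds few genes to them.

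Markers of other cell types were measured beside these rises. Of 23 T and NK cell markers, GATA3 and NKG7 rose (8.7% beside 2.66% of all genes) and CD247 fell (4.35% beside 0.501%). The summed log2 level of these markers was 122.38 and 120.83 in mock against 121.22 and 121.86 in the combination. Of 24 myeloid markers 3 rose (12.5% beside 2.66% of all genes). FCER1G, the signalling chain of Fc receptors, went from 4.56 and 4.73 to 9.43 and 8.70, FCGR2A from 4.55 and 4.56 to 7.05 and 7.09, and MARCO rose by 0.93. The other FCGR2A probe set differed by -0.02. MARCO lost its call without mock array 1 (0.95) or combination array 3 (0.82).

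The summed myeloid level was 117.37 and 115.82 in mock and 123.01 and 124.75 in the combination. CD14, LYZ, S100A8, S100A9, ELANE, PRTN3 and TYROBP, which define myeloid cells, were near background in mock and were not called. Of 20 stromal and epithelial markers only CDH1 was called, or 5% beside 2.66% of all genes called higher. The summed level of these markers was 96.31 and 95.73 in mock against 101.51 and 100.18 in the combination. Whether other cells had a part in the rises was not tested beyond these values.

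**Figure D3:**
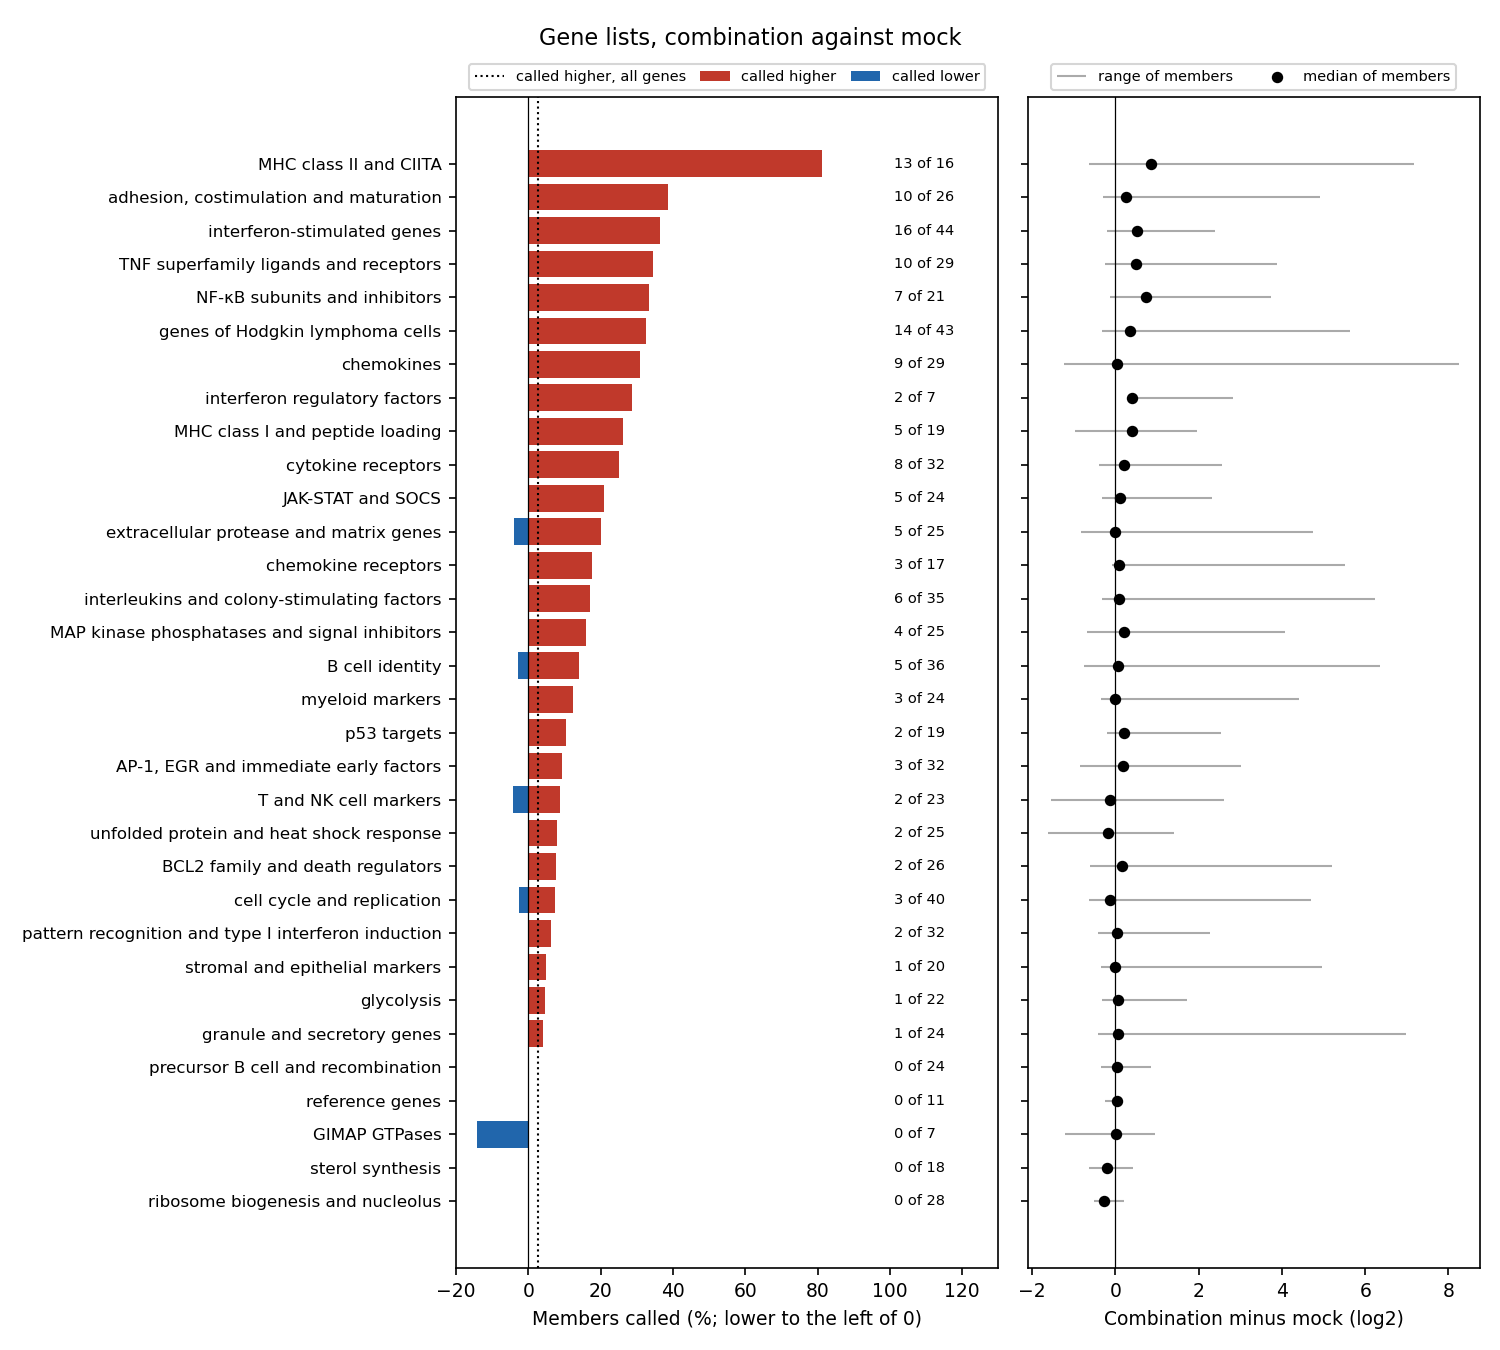
Gene lists ordered by the share of measured members called higher. The left panel gives the percentage called higher (red, right of 0) and lower (blue, left of 0), with the count called higher, and a dotted line at 2.66% for all genes. The right panel gives the median and range of the log2 difference between combination and mock, and MHC class II stands at the top with 13 of 16.

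No call was made in several lists. With 2.66% of all genes called higher and 0.501% lower, short lists can hold none, so this says little about their members. Among 28 genes of ribosome biogenesis and the nucleolus 0 were called, while 26 lay below 0 and the median was -0.28 beside -0.03 over all genes. RRP12 and POLR1A, the most negative of them, differed by -0.53 and -0.52. Of 18 sterol synthesis genes 0 were called and 15 lay below 0. Beside both lists, 10997 of all 19775 genes lay below 0. Of 11 reference genes 0 were called, with differences from -0.26 for TBP to 0.16.

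Of 25 genes of the unfolded protein and heat shock responses, 2 (8% beside 2.66% of all genes) were called higher and 0 lower, and the median was -0.18. HSPA6, a stress-induced HSP70, rose by 1.01 (SE 0.12) from 5.21 and 5.06 to 6.10 and 6.19. The 3 genes that follow were chosen after their values were seen, and none of them was called. HSPA5, or BiP, measured 13.22 and 12.43 in mock and 11.90 and 10.86 in the combination, a difference of -1.45 (SE 0.52, adjusted p = 0.206). SDF2L1 differed by -1.62 and CALR by -0.98, with adjusted p values of 0.124 and 0.106. In each of these 3 genes array 1 read higher than array 3 in both groups.

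The falls were smaller than the rises, and only 22 of 99 reached 2-fold. NPY, the neuropeptide Y gene, had the largest, from 10.16 and 9.64 in mock to 5.72 and 7.92 in the combination (-3.08, SE 0.61, adjusted p = 0.0297). Its combination arrays stood apart from each other as well as from mock. The call was lost without combination array 1, where the fall was -1.98, and without mock array 1 (-2.82), mock array 3 (-3.34) or either IRF5-4D array.

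RNA45SN5, a copy of the ribosomal RNA precursor gene, fell from 9.73 and 10.21 to 7.68 and 7.89, to 0.22 times the mock level (adjusted p = 0.00512). That gene exists in many near-identical copies, so the probes do not identify which ones fell. RASSF10, of the Ras association family, fell from 6.89 and 6.77 to 4.77 and 4.82 (-2.03, SE 0.17, adjusted p = 0.000279). SOX1, a transcription factor of neural progenitors, fell from 8.73 and 8.56 to 6.90 and 7.22 on the probe set used. Its other probe sets differed by -0.10 and 0.03 and were not called, and the mean of its 3 probe sets differed by -0.55. In these 3 genes both combination arrays lay at least 1 below both mock arrays.

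CNNM2, a magnesium transport protein, fell from 7.72 and 8.25 to 6.22 and 6.81 on its probe set, and by 0.61, not called, as the mean of 4 probe sets. GIMAP4, a GTPase of lymphocytes, fell from 5.97 and 5.94 to 4.84 and 4.65. It was the only one of 7 GIMAP genes called, beside 0.501% of all genes called lower. PFKFB3, which makes the activator of glycolytic phosphofructokinase, fell by 0.93 (SE 0.12), from 9.38 and 9.33 to 8.42 and 8.43. The call of CD247, the zeta chain of the receptor of T cells, rested on a fall of 1.56; it was -1.21 without mock array 1 and -1.25 without combination array 1, neither called.

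SLC30A1, a zinc exporter, fell by 1.43 from 11.64 and 11.33, and RBM12, an RNA-binding protein, by 1.13 from 11.03 and 11.08. Without mock array 1 these values were -1.28 and -1.16, neither called, and SLC30A1 was at -1.12 and not called without combination array 1. As the mean of its 2 probe sets RBM12 differed by -0.71 and was not called. In the fits without 1 of the 8 arrays, 11 of the 99 falls and 229 of the 526 rises kept their call in all 8. PFKFB3, RASSF10, SOX1, RNA45SN5, CNNM2 and GIMAP4 were among the 11.

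The other members of the 11 were chosen for naming after their values were seen. RRP15, a ribosome biogenesis factor, fell by 0.89 (SE 0.12), and TFB2M, a mitochondrial transcription factor, by 0.91 (SE 0.13). ETV5, an ETS factor, fell by 0.93, GABRA4, a GABA receptor subunit, by 0.88, and ZNF143-AS1 by 0.80. As the mean of all probe sets TFB2M differed by -0.26, ETV5 by -0.41 and GABRA4 by -0.45, and these 3 were not called.

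**Figure D4:**
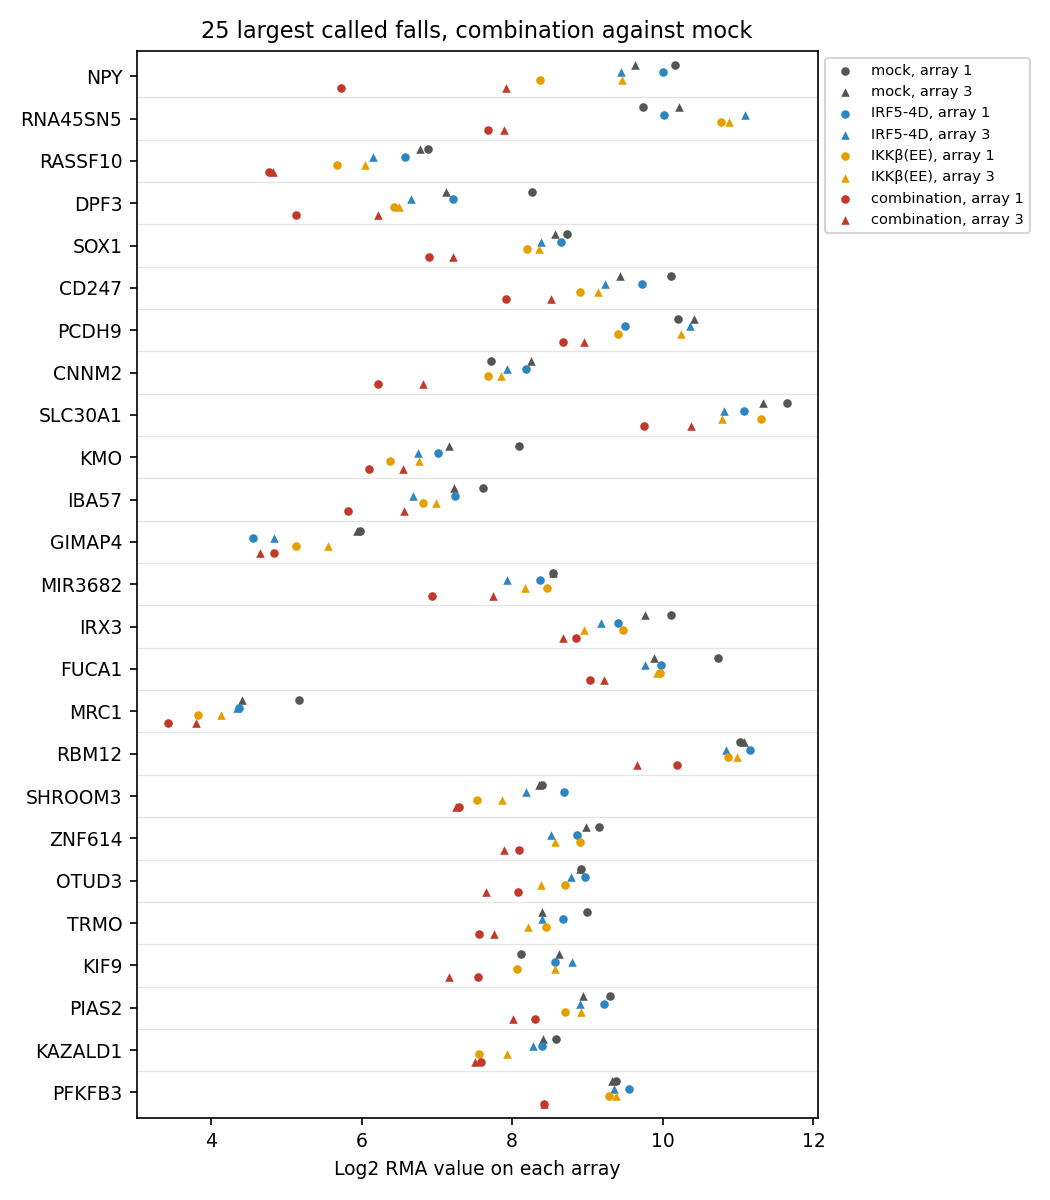
Log2 RMA value on each of the 8 arrays (x axis) for the 25 genes with the largest called fall in the combination against mock, in order of size. Circles are array 1 and triangles array 3 of each group. Both combination arrays lie below both mock arrays in every gene shown, which was a condition of their choice, and those of NPY lie at 5.72 and 7.92.

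The combination was then tested against each construct alone. These comparisons share the combination arrays, so each gene's own values are given side by side. Against IRF5-4D alone 242 genes were called higher (1.22% of all genes tested) and 37 lower (0.187%). Against IKKβ(EE) alone 271 were called higher (1.37%) and 69 lower (0.349%). The calls against IRF5-4D alone numbered 279, and 70 without either IRF5-4D array and 173 without combination array 1. Those against IKKβ(EE) alone numbered 340, and 116 and 108 without its array 1 or 3 and 189 without combination array 1.

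Some genes rose with the constructs together and read within 1 of mock on the log2 scale with either alone. HSFX3 measured 4.07 and 3.71 with IRF5-4D and 3.51 and 3.69 with IKKβ(EE), and the combination exceeded them by 5.17 and 5.46 (adjusted p = 0.00011 and 2.3e-05). LINC01857 measured 4.46 and 4.62 with IRF5-4D and 4.48 and 4.21 with IKKβ(EE), above its mock values of 3.74 and 3.77, and the combination exceeded them by 4.38 and 4.57. GPR84 measured 3.84 and 3.65 with IRF5-4D and 3.53 and 3.49 with IKKβ(EE), and exceeded them by 3.08 and 3.32. TMCC3, a coiled-coil membrane protein, rose from 3.94 and 3.56 in mock to 7.83 and 6.69 and exceeded the single constructs by 3.26 and 3.51.

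The combination also exceeded both single constructs in several immune genes. CXCL9 measured 4.34 and 4.68 with IRF5-4D and 4.56 and 4.43 with IKKβ(EE), and the combination exceeded them by 2.69 and 2.71. IL10RA exceeded them by 2.84 and 2.54, LIF by 1.95 and 2.26, IRF9 by 1.81 and 1.67, EPSTI1 by 2.02 and 1.84, and BATF3 by 1.02 and 1.20. All 6 genes passed the test against both. SRGN, EBI3, MS4A1 and CCND2 also passed both tests and read above mock with at least one single construct: SRGN exceeded IRF5-4D by 4.84 and IKKβ(EE) by 4.54, and MS4A1 by 4.76 and 3.20.

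A further set differed from IRF5-4D alone, with no call against IKKβ(EE) alone. HLA-DQA1 measured 11.64 and 11.10 with IKKβ(EE) against 11.95 and 10.99 in the combination, a difference of 0.10 (SE 0.41). LAMP3 measured 9.12 and 8.52 against 9.54 and 8.20. FAS differed from IKKβ(EE) by 0.05, ICAM1 by -0.03, CD83 by 0.00 and CD70 by 0.09, and from IRF5-4D by 3.21, 2.24, 1.24 and 1.27. With 2 arrays a group, these small differences do not show equal levels.

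The converse set differed from IKKβ(EE) alone, with no call against IRF5-4D alone. CCL4 measured 12.85 and 12.61 with IRF5-4D and 9.01 and 7.48 with IKKβ(EE), and the combination differed from them by 0.91 (SE 0.57, adjusted p = 0.596) and 5.39. DKK1 measured 9.24 and 9.09 with IRF5-4D and 5.92 and 6.22 with IKKβ(EE). FCRLA measured 7.59 and 7.37 against 7.70 and 7.21 in the combination, and FRMD3, a FERM domain protein with the ISRE core shown above, 7.68 and 7.63 against 8.57 and 7.98. MX1 and IFIT1 differed from IRF5-4D by 0.07 and -0.13 and from IKKβ(EE) by 1.08 and 1.10.

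**Figure D5:**
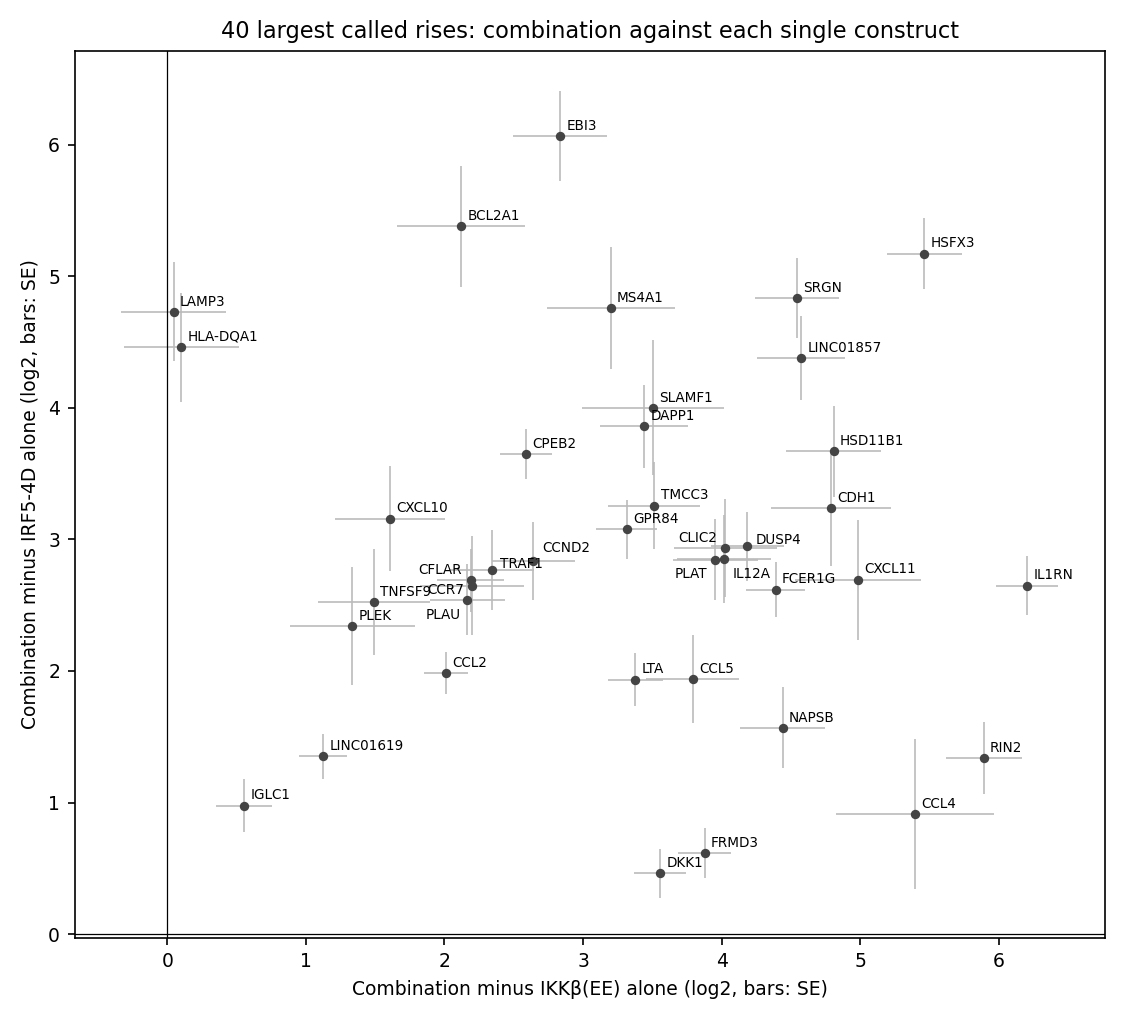
Log2 difference of the combination from IKKβ(EE) alone (x axis) and from IRF5-4D alone (y axis) for the 40 genes with the largest called rise against mock, with bars of 1 SE. LAMP3 and HLA-DQA1 lie near 0 on the x axis, DKK1, FRMD3 and CCL4 lie lowest on the y axis among genes far to the right, and HSFX3, SRGN and LINC01857 are above 4 on both.

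HSPA6 stood higher with IRF5-4D alone, at 6.96 and 7.10, than in the combination at 6.10 and 6.19 (-0.88, adjusted p = 0.0093). Genes below also lie under a single construct and were chosen after their values were seen. RNF144B, a ubiquitin ligase, measured 4.82 and 4.59 in mock, 10.36 and 9.81 with IKKβ(EE) alone and 7.55 and 6.92 in the combination. It thus rose by 2.53 against mock, while the combination differed from IKKβ(EE) alone by -2.85 (adjusted p = 0.00036). Its call against mock was lost as the mean of 4 probe sets (0.72).

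CCL8, a chemokine for monocytes, measured 7.29 and 7.22 with IRF5-4D alone, 3.86 and 3.84 with IKKβ(EE) alone and 4.79 and 5.42 in the combination. The combination differed from IRF5-4D alone by -2.15 (adjusted p = 0.0027). Its rise of 1.22 against mock was not called without mock array 1 (0.94) or without combination array 3 (0.91), nor without either IRF5-4D array. CXCL8, the neutrophil chemokine interleukin-8, measured 9.39 and 7.93 in mock, 11.23 and 10.74 with IKKβ(EE) alone and 7.56 and 7.30 in the combination. The combination differed from IKKβ(EE) alone by -3.56 (adjusted p = 0.002) and from mock by -1.23 (adjusted p = 0.153). Without mock array 3 the CXCL8 difference from mock was -1.96 and was called, and without mock array 1 it was -0.50.

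The combination arrays were not alike in the size of the response. The median change of the 526 called rises from the mock mean was 1.20 on combination array 1 and 0.98 on array 3, and 404 of them (76.8%) changed more on array 1. For the 99 called falls the medians were -0.71 and -0.74, and 46 (46.5%) changed more on array 1. The responding probe set of IKBKB read 11.11 on array 1 and 9.33 on array 3, and that of IRF5 read 8.002 and 7.82. The part of construct level in the size of the response was not tested. Without combination array 1, 360 genes were called against mock, and without mock array 1 there were 355.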

How the data were processed

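The deposited values were log2 expression levels of each probe set on each array, made with RMA per the submitters' processing notes. RMA corrects background, quantile-normalizes arrays and summarises probes, so a change common to most genes would be removed. Neither the RMA software's version nor the chip definition is stated in the sources used here. Probe sets with exactly 1 symbol in the platform annotation were used, and each of 19775 genes was represented by its probe set with the highest mean over 8 arrays, with no filter on level. limma 3.58.1 (lmFit, eBayes) under R 4.3.3 fitted 1 model of 4 group means to all 8 arrays, with 4 residual degrees of freedom. P values were adjusted over all genes (Benjamini-Hochberg), and errors are the moderated SE. In a fit without 1 array the lone array of a group is assumed to vary like the other groups. The procedure was tested on simulated data.

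The 32 gene lists and the genes compared were chosen with earlier results of these data known. The rule took IRF5 and IKBKB, the called genes with separate groups that had the 40 largest rises and the 25 largest falls, up to 6 called members of each list, and 2 as values where none was called. Not all of them are printed. Probe sets with several symbols were not named. Promoters came from RefSeq (GRCh38.p14). Alternatives were other probe set choices, normalizations, variance models, thresholds, a replicate block and leaving out each array.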

Additional observations from a re-analysis of the deposited data

Results flagged for a closer look

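The gene-level comparison left out 13522 probe sets that have several symbols (1801) or none (11721) in the platform annotation. In a limma fit of every probe set, 110 of them were called higher in the combination than in mock and 48 were called lower. These data lie outside the comparison of genes. The largest rise among them, 7.28 (SE 0.56), was on a probe set shared by several chemokine genes, which read 6.90 and 5.64 in mock and 13.83 and 13.27 in the combination. Another with no symbol rose by 6.58 (SE 0.48), from 4.88 and 4.50 to 11.85 and 10.69.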

How the results depend on the processing

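The count of 625 genes called against mock was 1049 with every probe set as its own feature, 280 with only the 2 groups fitted, 329 with a 2-fold minimum and 1048 at an adjusted p under 0.1. Without 1 array it ran from 355 to 564. The 279 calls against IRF5-4D alone became 422, 149, 168 and 484 under those settings, 150 among genes above the median level, and 70 to 286 without 1 array. The 340 calls against IKKβ(EE) alone became 569, 225, 206 and 547, with 179 among genes above the median level and 108 to 347 without 1 array. Of 141 named genes that were called, 103 to 126 kept the call without 1 array, and 93 kept it in all 8 such fits. LSS, a sterol synthesis gene that was not called at -0.58, was -1.21 and called without combination replicate 1 and 0.055 without combination replicate 3, and the cause was not tested. Median centring gave 449 higher and 155 lower calls against mock, and the mean of all probe sets gave 425 and 85.

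With the replicate number as a block, the calls were 918 against mock, 446 against IRF5-4D alone and 511 against IKKβ(EE) alone, and all 625 genes called against mock kept the call. The labels do not say that the numbers pair the samples, and the data did not settle it: deviations of same-numbered arrays from their group means correlated at -0.073 between mock and combination and at 0.107 to 0.343 between the other 5 pairs of groups. The block added calls for FOS, NFKBIA, TNFAIP3, TNF, CIITA, HSPA5, SDF2L1, CALR and CXCL8, so that they are not called here rests on leaving the block out. Only 2 arrays a group limit the precision, and levels near the lower quartile of 4.18 to 4.23 are not shown to lie above background.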
